A study of Mus musculus with 12 samples.

Results

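The effect of losing Satb1 was averaged over 2 stages of mouse thymocyte development, to describe which genes answered in the same way before and after the CD4 lineage was taken. The effect of the genotype, knockout (KO) minus wild type (WT), was estimated in DP thymocytes and in CD4 thymocytes, and the average gave each stage equal weight. All 12 of the 12 libraries of the series entered it, 3 in each of 4 groups: DP WT, DP KO, CD4 WT and CD4 KO. The libraries hold poly(A) RNA of cells sorted from thymus. DP cells carry both the CD4 and the CD8 co-receptor and are the stage at which T cell receptor alpha genes are rearranged and cells are selected; CD4 cells have been selected and have kept CD4. The genotypes are labelled Satb1 KO and WT, and every mouse, WT included, is labelled as treated with Tamoxifen, so the contrast compares genotypes under the same drug. Neither the Cre driver, the deleted part of Satb1, the sorting gates, the age of the mice nor the interval between Tamoxifen and sorting is stated in the labels. Separate mice behind the 3 libraries of a group are not stated either, so each p-value measures library spread, which may be partly technical.

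SATB1 is a nuclear protein, abundant in thymocytes, that binds DNA rich in A and T and holds chromatin of distant sites together. It is needed for thymocytes to pass normally through selection and lineage choice. Because it works on chromatin domains as well as on single genes, its loss can raise some genes and lower others, and neighbours on a chromosome are of interest.

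The libraries held 22790504 to 62422640 counts, fewest in DP WT replicate 3, and 18431 genes passed the low-count filter of edgeR, the program used for all gene tests. Levels are in CPM, counts relative to the total of the library, with edgeR's TMM scaling for RNA composition. The sorted identities were visible in the markers: Cd8a, the CD8 alpha chain, stood at 1652 to 2727 CPM in DP libraries and at 62.4 to 168 CPM in CD4 libraries. Both DP WT replicates 1 and 2 stood apart from the other 10 libraries. They held 33782 and 30359 genes with a count against 22819 to 27519 elsewhere, and 0.845 and 0.273 CPM of Xist, the RNA of the inactive X chromosome, against 189.7 to 601 CPM elsewhere. Ddx3y, a gene of the Y chromosome, was counted at 40.4 to 127 CPM in all 12. By these genes the sex make-up of DP WT replicates 1 and 2 was not that of the other libraries, and in DP cells sex and genotype cannot be fully told apart. The fit was repeated with DP WT replicate 3 as the only DP control, and counts for gene lists that moved by over 1.5 times under it are given beside the result. Summed markers of B cells (12 genes) lay at 18.6 to 24.5 CPM in DP WT and 23 to 28.4 CPM in DP KO. In CD4 they lay at 9.76 to 23.1 CPM in WT and 25.7 to 36.1 CPM in KO, without overlap. Of 9 tested, 1 was higher and none lower on average. Summed markers of myeloid cells (17 genes) lay at 162 to 213 CPM in CD4 WT and 108 to 157 CPM in CD4 KO. In DP cells they lay at 19.7 to 48.9 CPM. Stromal and epithelial markers (18 genes) summed to 153 to 160 CPM in DP WT, 184 to 207 CPM in DP KO, 204 to 223 CPM in CD4 WT and 184 to 208 CPM in CD4 KO, with Krt5 and Foxn1, defining genes of thymic epithelium, at or below 0.294 CPM. Of 12 tested, 4 were lower and 1 higher on average, and 1 and 1 under the sole DP control. Red cell markers (9 genes) summed to 27 to 199 CPM in DP WT, 68.2 to 332 CPM in DP KO, 23.9 to 139 CPM in CD4 WT and 49.6 to 221 CPM in CD4 KO. None of the 6 tested was called, but 5 were higher on average and 3 in both stages with a replicate block. The part of these cells in the results was not tested.

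The Satb1 gene (mm10 chromosome 17, minus strand, 51736187 to 51833290) was lower in every KO library than in every WT library of its stage. In DP cells the WT libraries held 3891, 3834 and 3874 CPM and the KO libraries 2497, 2875 and 2456 CPM. In CD4 cells the WT libraries held 3515, 3301 and 3002 CPM and the KO libraries 1482, 1546 and 1470 CPM. The average log2 fold change was -0.85 ± 0.05 (SE, n = 3 libraries in each of 4 groups; edgeR quasi-likelihood test with Benjamini-Hochberg adjustment, adjusted p = 3.92e-08). The same test and adjustment over all 18431 genes stand behind every adjusted p below. The fall was larger in CD4 than in DP by 0.56 on the log2 scale (95% interval of the difference, CD4 minus DP, -0.79 to -0.33). Much of the transcript was still counted, and a count over the whole gene cannot show how much of it came from exons left in place.

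**Figure D1:**
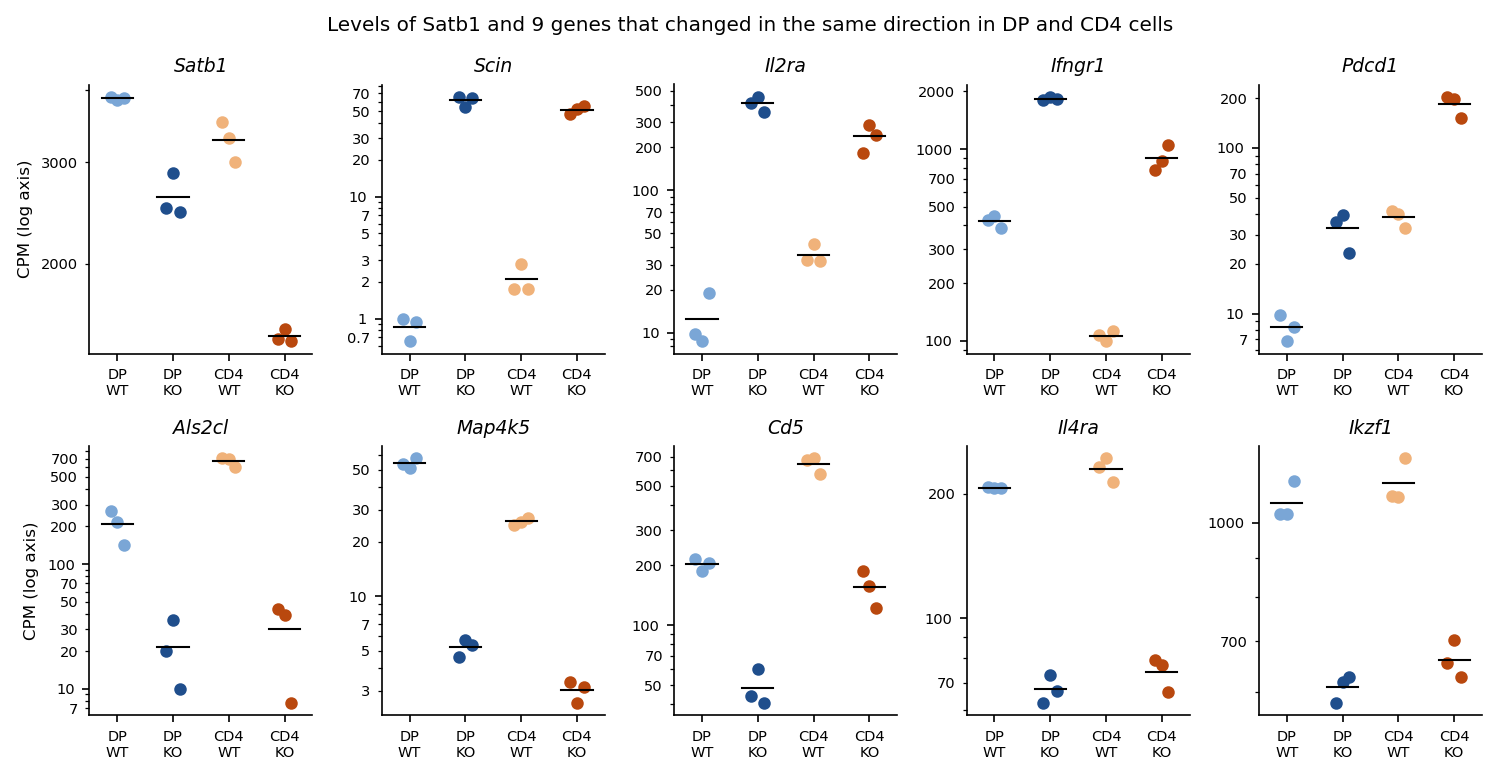
Normalised levels (CPM, log axis) of Satb1 and 9 genes that changed in the same direction in both stages; points are the 3 libraries of a group in order of replicate number and bars are group means. KO and WT libraries of the same stage do not overlap in any panel, and the WT level of a gene can differ several-fold between the stages while the change keeps its direction.

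The average was built from quite different kinds of gene. With an adjusted p under 0.05 as the limit for a call, 4166 genes were higher in KO (22.6% of those tested) and 3583 lower (19.4%), 7749 in all (42%). Of the 4166 higher genes, 1250 (30%) were also called as higher in DP and in CD4 each, 959 (23%) in DP alone, 1678 (40.3%) in CD4 alone and 279 (6.7%) in neither stage alone. The 3583 lower genes held 1003 (28%) that were lower in both stages, 951 (26.5%) in DP alone, 1311 (36.6%) in CD4 alone and 318 (8.88%) in neither. So the genes called in both stages were 6.78% of all tested genes on the higher side and 5.44% on the lower side, and these 2253 are the ones called shared here. A further 802 genes (4.35%) were opposed, that is called in both stages but with opposite signs, and 529 of them were not called on average. The effect itself differed between the stages in 5116 genes (27.8%), by the test of CD4 effect minus DP effect; 390 of the 1250 shared rises and 214 of the 1003 shared falls were among them.

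Shared rises and shared falls differed in the level from which they started. The median level in WT cells was 14.3 CPM for the shared rises, which went to 27.4 CPM in KO, and 39.2 CPM for the shared falls, which went to 22.5 CPM; over all tested genes the WT median was 10.2 CPM. The median average effect was 0.86 for the rises and -0.78 for the falls on the log2 scale, and 0.00265 over all tested genes. Gene length, as the exon bases of the counted model, had a median of 3588 bases in the rises, 4583 in the falls and 3269 overall. An average effect of at least 1 in size was reached by 554 rises and 397 falls. Averaging over both stages brought the median SE to 0.116, from 0.165 in DP and 0.164 in CD4. The 3 KO libraries lay above the 3 WT libraries without overlap in both stages in 1820 genes (9.87%), and below them in 1449 (7.86%). When each KO library was set against the WT library of its own number, 1233 of the 1250 rises and 980 of the 1003 falls went the same way in all 6 pairs. The genes were called on these same libraries, so that agreement largely follows from how they were chosen. With DP WT replicate 3 as the only DP control, 846 genes were called as shared rises and 536 as shared falls, 1275 of the 2253 shared genes kept their call, and 399 genes were opposed.

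**Figure D2:**
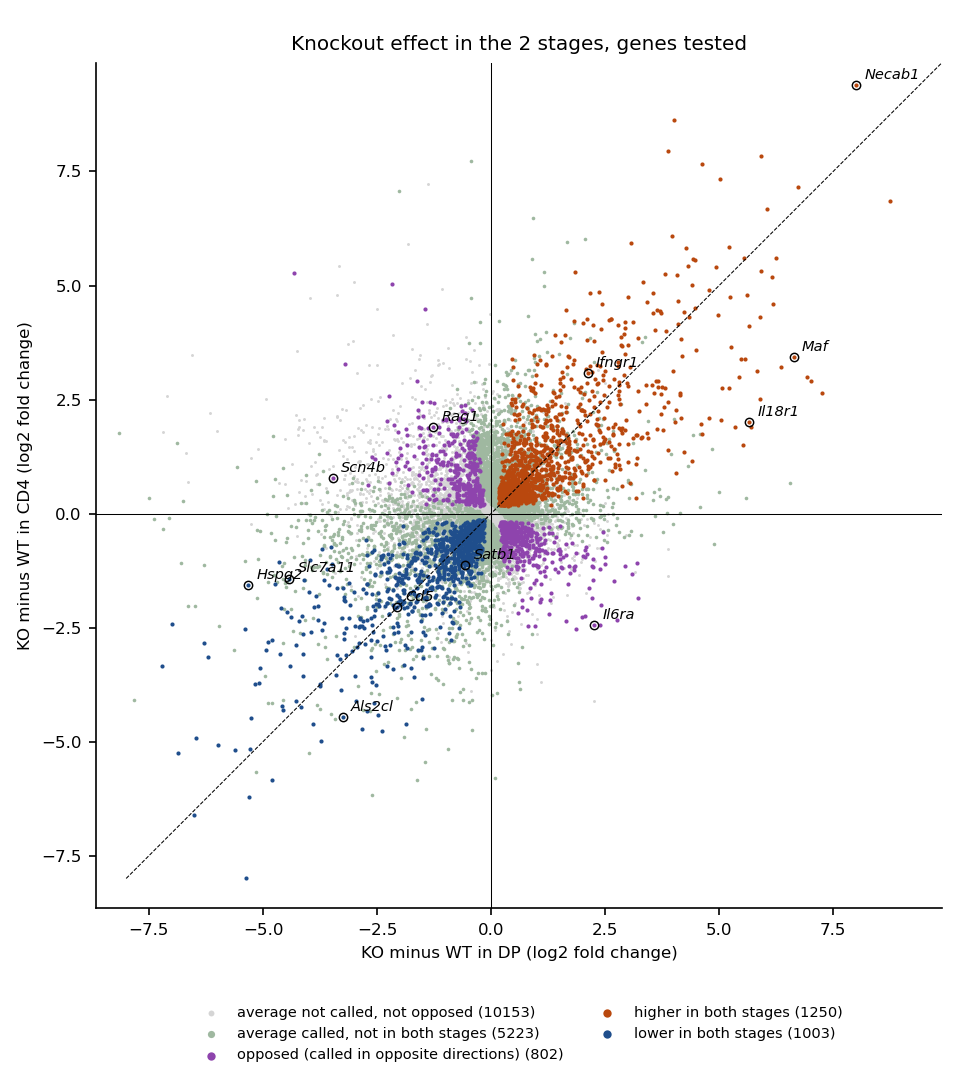
Knockout effect (log2 fold change, KO minus WT) in DP on the horizontal and in CD4 on the vertical axis for all tested genes, coloured by call; the dashed line marks equal effects. The 1250 shared rises and 1003 shared falls fill the upper right and lower left, and the 802 opposed genes the other corners. Of the opposed genes, 727 had an average under 0.5 in size, and 168 were called higher and 105 lower on average.

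The largest shared rises were in genes close to silent in WT cells of both stages, which a ranking by fold change favours. Necab1, whose product binds calcium in neurons (chromosome 4, 14952245 to 15149804, minus strand), had the largest average among genes of at least 2 log2 CPM, 8.70 ± 0.30 (adjusted p = 1.41e-10). Its WT libraries held 0.251, 0.147 and 0.179 CPM in DP and 0, 0 and 0.168 CPM in CD4, and its KO libraries 47.5, 50.2 and 53.2 CPM in DP and 18.2, 30.7 and 31.4 CPM in CD4. Only 5 reads stood behind the CD4 WT group, so the fitted size depends on edgeR's prior count. KO and WT libraries lay far apart in each stage, and replicate 3 was the highest KO library in both.

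Several of these genes act at the cell surface, in the matrix or on the cytoskeleton. Thbs2, which encodes the matrix protein thrombospondin 2, had an average of 6.95 ± 0.74, with KO libraries at 7.76, 7.96 and 36 CPM in DP and 4.18, 3.18 and 16 CPM in CD4, so that replicate 3 was again the highest in both stages. Sdc1, the syndecan that marks plasma cells, rose by 5.93 ± 0.24, and Scin, the actin-severing protein scinderin, by 5.39 ± 0.13. Scin was even among replicates: 0.983, 0.651 and 0.937 CPM became 65.8, 54.5 and 64 CPM in DP, and 1.75, 2.81 and 1.74 CPM became 47.5, 52.2 and 55 CPM in CD4. Hlf, a transcription factor of blood stem cells, rose by 5.16 ± 0.18 and Greb1, an oestrogen-responsive gene of other tissues, by 5.05 ± 0.17. Others among the 12 largest were Lrrn3 (5.67), Ankrd35 (5.62), Gpr82 (5.58), Nyap2 (5.53) and Fndc1 (5.10), given as average log2 fold changes, each with adjusted p of 8.81e-08 or less in edgeR.

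The largest shared falls were of more than 1 kind. Hspg2, Jup, Nron, Podxl2 and Adcy1 were mainly genes of DP WT cells and fell further there. Jup, which encodes the junction protein plakoglobin (chromosome 11, 100368856 to 100397839, minus strand), went from 145, 148 and 121 CPM to 5.16, 7.04 and 4.87 CPM in DP, and from 64.5, 61.2 and 53.2 CPM to 21.4, 14.2 and 6.78 CPM in CD4. Its average was -3.34 ± 0.21 (adjusted p = 4.61e-08) and its effect differed between the stages by 2.52 (interval 1.66 to 3.39). Tmie, Als2cl, Slc15a1, Chl1 and Tspan9 were instead higher in CD4 WT than in DP WT cells. Chl1, a neural cell adhesion molecule, went from 66.6, 71.1 and 52.2 CPM to 5.38, 3.53 and 0.486 CPM in CD4, and from 3.95, 2.54 and 4.69 CPM to 0.164, 1.43 and 0 CPM in DP, an average of -3.52 ± 0.52 (adjusted p = 0.000114). Slc15a1, a peptide transporter, fell by 3.78 and Tspan9, a tetraspanin, by 3.45.

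Map4k5 and Fbln1 completed the 12 largest falls, and their difference between stages was not called. Map4k5, a kinase of stress signalling (chromosome 12, 69803757 to 69893163, minus strand), went from 53.8, 51.2 and 57.7 CPM to 4.62, 5.7 and 5.36 CPM in DP. In CD4 it went from 24.6, 25.7 and 27.1 CPM to 3.37, 2.57 and 3.15 CPM, and the average was -3.24 ± 0.08 (adjusted p = 1.73e-11), with a difference between stages of 0.28 (interval -0.06 to 0.62). Fbln1, the matrix protein fibulin 1, averaged -3.03 ± 0.19 with a difference of 0.04 (interval -0.77 to 0.86). The libraries of a group were close together in Map4k5, whereas in Tmie, Als2cl, Slc15a1, Chl1 and Tspan9 the lowest KO library was replicate 3 in both stages.

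That order of the KO libraries was common among the strong shared falls. Of the 397 shared falls with an average of -1 or less, KO replicate 3 was the lowest KO library in both stages in 161 (40.6%), replicate 2 in 30 (7.56%) and replicate 1 in 21 (5.29%). Over all tested genes the counts were 4683 (25.4%), 2481 (13.5%) and 2336 (12.7%). In the 554 shared rises of at least 1, replicate 3 was the highest KO library in both stages in 175 (31.6%), replicate 2 in 99 (17.9%) and replicate 1 in 30 (5.42%), against 4481 (24.3%), 3125 (17%) and 2055 (11.1%) over all tested genes. Satb1 also had its lowest KO values in replicate 3, 2456 CPM in DP and 1470 CPM in CD4, with the next lowest close by at 2497 and 1482 CPM. Whether the KO libraries differed in the share of cells that had lost Satb1 was not tested.

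The most even effects marked genes whose average stands for each stage. Among shared genes with an average of at least 1 in size, those with the smallest difference between stages were taken, so that the evenness is how they were chosen and not a result. On the lower side they included Rps6ka1, Cd5, Il4ra, Gramd3 and Mgst2. Cd5, a receptor that dampens T cell receptor signals (chromosome 19, 10718107 to 10739026, minus strand), went from 214, 186 and 204 CPM to 44.1, 59.9 and 40.7 CPM in DP and from 675, 689 and 571 CPM to 188, 157 and 122 CPM in CD4. Its level was higher in CD4 than in DP cells of both genotypes, and the average was -2.06 ± 0.11 (adjusted p = 1.31e-08) with a difference of 0.01 (interval -0.46 to 0.48). Il4ra, the interleukin-4 receptor alpha chain (chromosome 7, 125552271 to 125579474, plus strand), stood at 207, 206 and 206 CPM in DP WT and at 62.5, 73.1 and 66.7 CPM in DP KO. In CD4 it stood at 232, 244 and 214 CPM in WT and 79.2, 77.2 and 66.4 CPM in KO, an average of -1.62 ± 0.06 (adjusted p = 2.00e-10) and a difference of -0.01 (interval -0.26 to 0.23). Rps6ka1, a kinase downstream of ERK, averaged -1.39 ± 0.15.

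On the higher side the even genes were Tasp1, Zbtb10, Tnfsf14, Slc35b4, Fggy and Il12rb1. Tasp1, the protease that cleaves the histone methyltransferase MLL, averaged 1.32 ± 0.09 with a difference of 0.00 (interval -0.39 to 0.39). Tnfsf14, the TNF family ligand LIGHT, went from 4.07, 3.57 and 4.15 CPM to 9.61, 10.5 and 7.78 CPM in DP and from 5.45, 6.69 and 7.95 CPM to 16.1, 16.4 and 15.9 CPM in CD4, an average of 1.26 ± 0.11 (adjusted p = 7.02e-07). Across the 2253 shared genes, the interval of the difference lay within 1 log2 unit either side of 0 in 739 of the 1250 rises and 637 of the 1003 falls; for the rest a difference of that size could not be set aside at this depth.

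Some shared genes lay next to each other. Tested genes were put in chromosome order and read by their call. Of the 1188 shared rises placed on a single sequence of the assembly, 236 (19.9%) had a directly adjacent tested gene of the same class. Only neighbours whose models did not overlap were counted, and the class made up 6.79% of the tested genes placed. Of 951 shared falls 170 (17.9%) had such a neighbour, where the class made up 5.44%. A neighbour on either side was enough, so the class share is too low a yardstick for these shares. Clustering was not tested. Runs of at least 3 adjacent genes on main chromosomes numbered 31 for rises (105 genes) and 14 for falls (47 genes). Of these runs, 13 and 11 held no overlapping gene models. The labels and file headers do not state whether counting used strand, so genes whose models overlap can share reads and are left aside.

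The longest run of falls without overlapping models covered 5 genes on chromosome 9, 110857964 to 110946158: Prss50, Tmie, Als2cl, Fam240a and Tdgf1. Als2cl, a guanine nucleotide exchange factor related to alsin (110880120 to 110900530, plus strand), was the most abundant. It stood at 267, 217 and 141 CPM in DP WT and 20, 35.4 and 9.96 CPM in DP KO, and at 705, 693 and 601 CPM in CD4 WT and 43.9, 38.9 and 7.71 CPM in CD4 KO, an average of -3.86 ± 0.39 (adjusted p = 3.60e-06). Tmie, a membrane protein of inner ear hair cells that lies head to head with it (110865687 to 110880073, minus strand), averaged -4.36 ± 0.43 (adjusted p = 2.88e-06). Tdgf1, the NODAL co-receptor cripto, averaged -2.79 ± 0.35 and fell further in CD4 than in DP. Fam240a and Prss50 fell to 4 and 2 reads in all in DP KO and 16 and 14 in CD4 KO, from 125 and 25 in DP WT and 508 and 173 in CD4 WT; with DP WT replicate 3, which held no read of Prss50, as the only DP control, Prss50 was not called (average -0.62, adjusted p = 0.923). Beyond the run the average changes were smaller. On one side Ccdc12, directly beside the run, averaged -0.22. Further out on that side Nbeal2 averaged -0.41 and Nradd -0.81, and all of these were called in DP alone. On the other side Lrrc2 averaged -1.24 and was called in CD4 alone. With DP WT replicate 3 as the only DP control neither Ccdc12 nor Lrrc2 kept its call on average.

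Only 46 bases separate the counted models of Tmie and Als2cl, and they are shown because both directions of transcription fell together. RefSeq gives them for GRCm38.p6, the assembly of mm10, at chr9:110880074-110880119, plus strand, with the longest unbroken run of A and T in capitals, A and T being the bases SATB1 is known to prefer.
Tmie-Als2cl interval: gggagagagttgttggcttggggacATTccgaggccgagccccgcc
That run was 3 bases long and 32.6% of the bases were A or T. The letters describe the interval and say nothing of SATB1 binding.

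**Figure D3:**
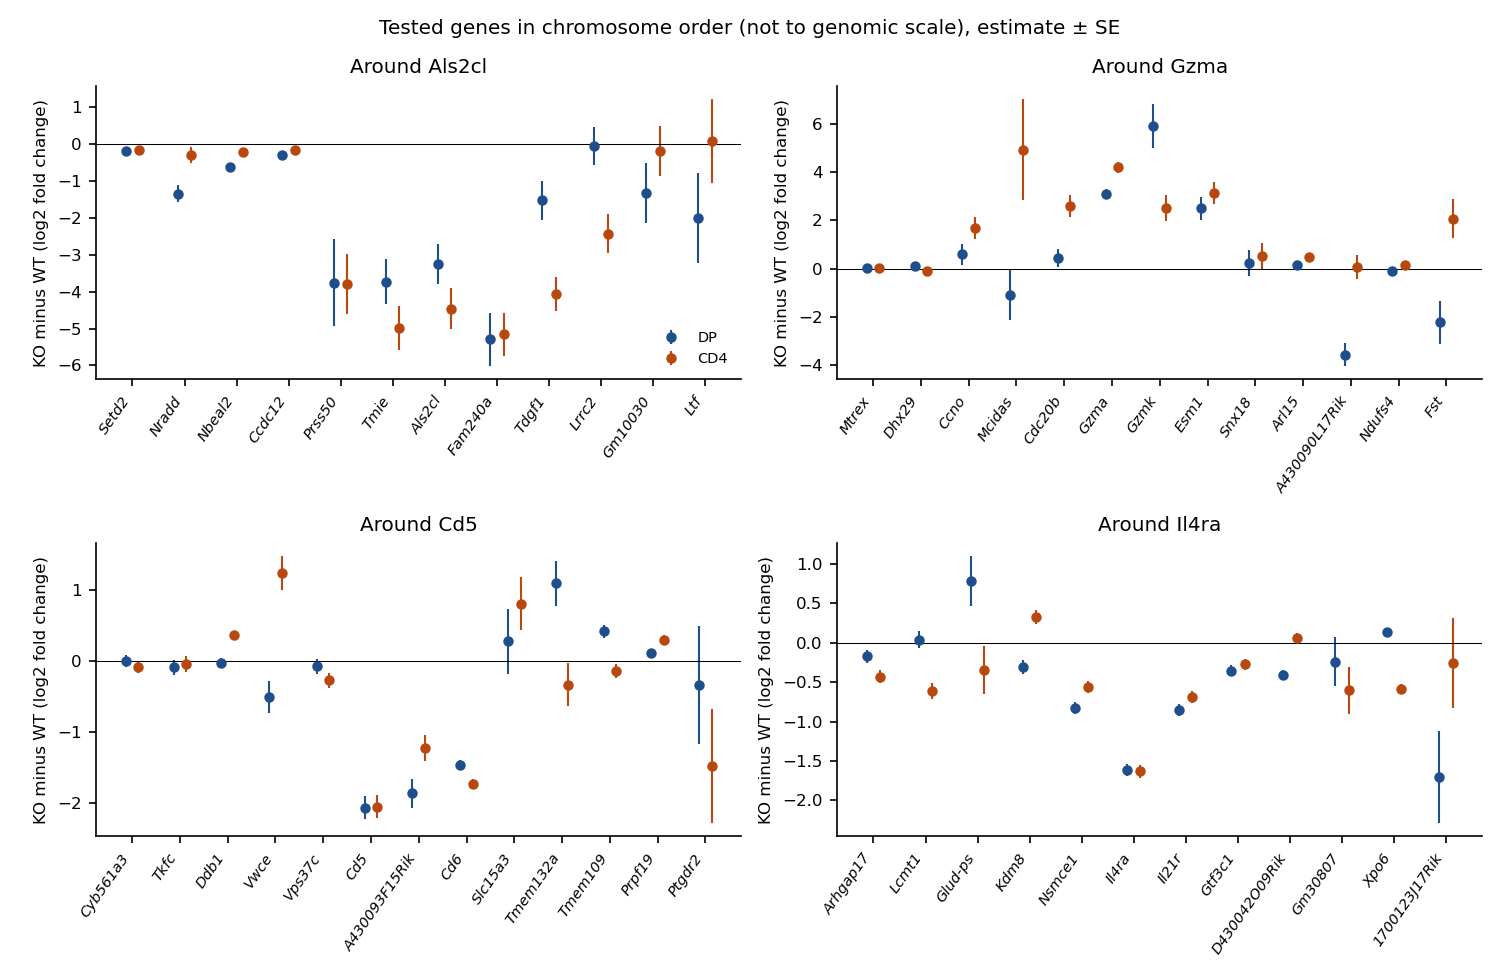
Knockout effect (log2 fold change ± SE) in DP and CD4 of tested genes in chromosome order around Als2cl, Gzma, Cd5 and Il4ra, equally spaced and not to genomic scale. The shared changes cover 5 genes around Als2cl, 3 around Gzma, 3 around Cd5 and 4 around Il4ra, and Kdm8, directly beside the run around Il4ra, was called in both stages with opposite signs.

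A pair of receptor genes of like function lay side by side in the run on chromosome 19, 10718107 to 10830062. Cd6, which like Cd5 restrains T cell receptor signals, went from 391, 372 and 374 CPM to 133, 146 and 133 CPM in DP and from 650, 652 and 629 CPM to 209, 196 and 176 CPM in CD4, an average of -1.60 ± 0.05 (adjusted p = 7.15e-11). A430093F15Rik between them averaged -1.54 ± 0.14. Vps37c and Slc15a3, the tested genes on either side, were not called. On chromosome 7, 125467644 to 125707688, Il4ra lay in a run with Nsmce1 (-0.70), Il21r (-0.77) and Gtf3c1 (-0.32), given as averages; Il21r encodes the receptor of interleukin-21.

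A run of rises on chromosome 13, 113093824 to 113218104, held Gzma, Gzmk and Esm1. Gzma, a granule protease of killer cells, went from 25.7, 23.4 and 32.9 CPM to 233, 223 and 250.4 CPM in DP and from 6.74, 4.94 and 10.5 CPM to 114, 130.4 and 152 CPM in CD4, an average of 3.65 ± 0.15 (adjusted p = 9.10e-10). Gzmk, a second granzyme, held 2 reads in DP WT and 196 in DP KO, 70.3 times the WT level in CPM (exact interval 19.2 to 584, counting error only), and in CD4 it rose by 2.51 ± 0.55. Esm1, a proteoglycan of endothelium, averaged 2.81 ± 0.32. Gzma lies within the model of Cdc20b on the other strand, and reads of any bases they share could not be assigned without strand.

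The bases before the RefSeq start sites of Gzma (chr13:113100982-113101231, minus strand) and Cd5 (chr19:10739027-10739224, minus strand) are shown as a shared rise and a shared fall, with the longest run of A and T in capitals. For Cd5, bases within the counted model were left out.
Gzma: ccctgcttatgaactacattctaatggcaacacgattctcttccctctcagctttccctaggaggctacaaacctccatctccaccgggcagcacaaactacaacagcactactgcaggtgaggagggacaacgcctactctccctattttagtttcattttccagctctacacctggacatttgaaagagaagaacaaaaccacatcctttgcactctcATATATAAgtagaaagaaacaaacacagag
Cd5: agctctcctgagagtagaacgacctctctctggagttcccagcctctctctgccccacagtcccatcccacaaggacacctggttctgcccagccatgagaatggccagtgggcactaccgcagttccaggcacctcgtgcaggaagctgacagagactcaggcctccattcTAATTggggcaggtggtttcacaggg
A and T made up 55.2% of the bases shown for Gzma and 41.4% of those for Cd5, and the marked runs were 8 and 5 bases long.

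The genes of T cell receptor signalling were then read as lists, each described by counts and by its median beside those of all tested genes given above. The list of receptor and CD3 chains named 9 genes, of which 6 were tested: Cd3d, Cd3e, Cd3g, Cd247, Ptcra and Tespa1. Tespa1 is not itself a receptor chain, and no alpha or beta chain of the mature receptor was among the 6. All 6 were lower on average (median -0.53), and 4 were lower in both stages, Tespa1 included. With DP WT replicate 3 as the only DP control 5 were lower on average and 2 in both stages, and without DP KO replicate 3 also 2 in both. Cd3d, a CD3 chain, went from 357, 322 and 310.4 CPM to 164, 179 and 198 CPM in DP and from 356, 352 and 393 CPM to 259, 221 and 235 CPM in CD4, an average of -0.75 ± 0.06. Cd247, the zeta chain that carries the signal inward, averaged -0.70 ± 0.04. Ptcra, the pre-T cell receptor alpha chain, was the exception in kind: it fell in DP and rose in CD4. Not every receptor gene was lower. Tcrg, the T cell receptor gamma locus, was outside the list and rose in both stages. Its average was 4.88 ± 0.12, from 5.65 in DP and 4.11 in CD4. The counted model of Tcrg overlaps that of Gm31887.

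A list of 24 kinases, adaptors, phosphatases, accessory receptors and other regulators next to the receptor held 18 genes lower on average and 2 higher (median -0.34). In both stages 10 were lower and 2 higher. Those lower in both stages included Zap70 (-0.31), the kinase that binds the zeta chain, Plcg1 (-0.49), the phospholipase that starts the calcium signal, and Dusp6 (-1.24), a phosphatase of ERK. Cd28 (-0.90) and Cd2 (-1.75), receptors that add to the signal, fell too, but the counted models of both hold exons on more than 1 sequence of the assembly and are uncertain. The 2 that rose in both stages were Spry1 (1.63) and Ptpn22 (0.54), which restrain signalling. Ptpn6 (-0.62) and Ubash3a (-0.48), which restrain it too, fell in both stages. With DP WT replicate 3 as the only DP control, 17 of the 24 were lower on average, 5 lower in both stages and none higher in both. Cd69 and Egr1, which thymocytes switch on when the receptor is engaged, averaged -1.25 ± 0.22 and -0.87 ± 0.12 and were the 2 of 14 receptor response genes that fell in both stages; 5 of the 14 were lower and 5 higher on average.

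Of 19 genes of the NF-kB pathway, 11 were lower and 1 higher on average (median -0.22). Traf1, an adaptor of TNF receptors, averaged -1.72 ± 0.13, and Nfkbia, the inhibitor that holds NF-kB in the cytoplasm, -0.91 ± 0.12. The subunit genes Rel (-0.88) and Relb (-0.89) completed the 4 that fell in both stages. In the fit with a replicate block, 8 fell in both. Of 21 calcium and NFAT genes, 9 were lower and 5 higher on average, and 4 and 3 in both stages. Ppp3cc, a catalytic subunit of calcineurin, averaged -1.35 ± 0.13 and Itpr1, a calcium release channel, -1.20 ± 0.04, while Nfatc2 fell (-0.80) and Nfatc1 rose (0.48) in both stages.

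Inhibitory receptors did not move as 1 group. Of 12 tested, 7 were higher and 3 lower on average, and 3 rose and 3 fell in both stages. Pdcd1, which encodes PD-1 (chromosome 1, 94038305 to 94052553, minus strand), went from 9.87, 6.8 and 8.3 CPM to 35.7, 39.5 and 23.1 CPM in DP and from 41.8, 39.7 and 32.8 CPM to 204, 197 and 152 CPM in CD4. Its average was 2.13 ± 0.14 (adjusted p = 4.99e-08), with no overlap of the groups in either stage. Havcr2, which encodes TIM-3, averaged 2.75 ± 0.24 from low levels, and Cd160 1.62 ± 0.19. Cd5, Cd6 and Vsir (-0.78), which encodes VISTA, were the ones that fell.

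Cytokine receptor genes moved both ways. Of 26 cytokine receptor genes, 13 were higher and 7 lower on average (median 0.27), and 8 rose and 5 fell in both stages; 8 and 4 did so with DP WT replicate 3 as the only DP control. Il2ra, whose chain raises the affinity of the interleukin-2 receptor, averaged 3.91 ± 0.18 (adjusted p = 2.69e-09), whereas Il2rg, the gamma chain that several receptors share, fell in both stages with an average of -0.59 ± 0.05 (adjusted p = 7.44e-07). Il2ra went from 9.83, 8.69 and 18.9 CPM to 411, 454 and 356 CPM in DP and from 32.2, 41.7 and 31.7 CPM to 182, 289 and 245 CPM in CD4. Il2rg lay between 269.5 and 301 CPM in DP WT and between 216 and 249 CPM in DP KO, and between 649 and 678 CPM in CD4 WT and 340.2 and 381 CPM in CD4 KO.

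The chains of the interferon gamma receptor also differed in direction. Ifngr1, the ligand-binding chain (chromosome 10, 19591949 to 19610229, plus strand), went from 425, 447 and 389 CPM to 1793, 1874 and 1814 CPM in DP and from 108, 99.6 and 112 CPM to 779, 862 and 1055 CPM in CD4, an average of 2.60 ± 0.07 (adjusted p = 3.83e-11). Ifngr2, the signalling chain (chromosome 16, 91547059 to 91564007, plus strand), averaged -0.88 ± 0.07 (adjusted p = 2.34e-07), with KO at 29.9 to 35.4 CPM in DP and 32.8 to 38.8 CPM in CD4 against WT at 36.9 to 45.5 and 93 to 97.5 CPM. The chains thus moved in opposite directions in both stages, with no overlap of KO and WT libraries for either gene.

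Both chains of the interleukin-12 receptor rose, as did the factor that they activate. Il12rb2 averaged 2.32 ± 0.08 (adjusted p = 2.24e-10) and Il12rb1 1.93, although the counted model of Il12rb1 lies on more than 1 sequence of the assembly. Stat4 went from 31.6, 33.6 and 34.5 CPM to 93.1, 95.9 and 88.7 CPM in DP and from 37.6, 37.6 and 33.8 CPM to 69.4, 72.6 and 77.3 CPM in CD4, an average of 1.24 ± 0.05 (adjusted p = 6.19e-10). Il18r1, a receptor chain of interleukin-18, averaged 3.83 ± 0.11 with a far larger rise in DP than in CD4. Stat5a (-0.32) and Stat5b (-0.51), which act below the gamma chain receptors, fell in both stages. Socs3, an inhibitor of cytokine signals, rose in both, by 1.11 ± 0.09 on average. Over the 20 genes of JAK kinases, STAT factors and SOCS inhibitors, 7 were higher and 6 lower on average, with 3 rises and 3 falls in both stages.

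Among 27 transcription factors of T cell identity, 10 were higher and 10 lower on average. Ikzf1, which encodes Ikaros, fell in both stages: it stood at 1028, 1026 and 1135 CPM in DP WT and 581, 619 and 628 CPM in DP KO, and at 1085, 1080 and 1215 CPM in CD4 WT and 656, 703 and 629 CPM in CD4 KO. The average of Ikzf1 was -0.78 ± 0.05 (adjusted p = 5.22e-08), while its relative Ikzf3, which encodes Aiolos, rose in both stages (0.76). Lef1 (-0.79) and Ets2 (-1.10) fell in both. Gata3 (1.06), Prdm1 (2.27), which encodes BLIMP-1, and Hlf rose in both, and so did Maf, outside that list, by 5.03 ± 0.13, a transcription factor of helper T cells. Ets2 too lies on more than 1 sequence of the assembly and is uncertain.

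Genes of other cell fates also held shared changes. Of 19 CD8 lineage and cytotoxic genes, 4 rose in both stages (Gzma, Gzmk, Ccl5 and Cst7) and 1 fell, Ccr9 (-2.33 ± 0.12), the chemokine receptor that keeps thymocytes near thymic epithelium; 9 were higher and 2 lower on average. Of 17 regulatory T cell genes, 7 were higher and 5 lower on average (median -0.12), and 6 and 3 under the sole DP control. Il2ra, Itgb8, Nt5e and Ikzf2 rose in both stages and Tnfrsf18, which encodes GITR, fell in both (-0.77); under that control 3 genes rose in both and none fell. Foxp3, their defining gene, was called in neither stage and its average of 0.59 was at the limit (adjusted p = 0.0479, and 0.0567 with the replicate number as a block). Of 16 genes of double-negative progenitors, 6 were higher and 2 lower on average (5 and 1 under the sole DP control), and 3 rose and 1 fell in both stages, the fall being that of Cd44 (-1.14), an adhesion receptor. Kit, the stem cell factor receptor, averaged 1.57 ± 0.10 and rose from 3.47, 2.98 and 2.46 CPM to 10.5, 7.48 and 7.95 CPM in DP and from 8.38, 9.17 and 7.81 CPM to 26.6, 26.1 and 25.4 CPM in CD4. In bulk RNA a change in the share of such cells and a change in RNA per cell cannot be told apart. The summed NK and natural killer T markers (12 genes) lay at 80.1 to 88.4 CPM in DP WT and 72.7 to 80.7 CPM in DP KO. They lay at 292 to 371 CPM in CD4 WT and 337 to 356 CPM in CD4 KO. The sums hide changes of single genes: 5 of the 12 were higher and 1 lower in DP, and 1 was higher and 7 lower in CD4 (median -1.47). Klrb1c went from 15.1, 7.29 and 17.8 CPM to 1.25, 1.44 and 0.741 CPM in CD4. Ncr1 was at or below 0.434 CPM. The part of NK and natural killer T cells in the results was not tested.

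Metabolic lists differed. Of 18 glycolysis genes, 7 were higher and 6 lower on average, with 2 rises and 2 falls in both stages, and 2 and 1 with DP WT replicate 3 as the only DP control. Of 13 amino acid transporter genes, 8 were higher and 1 lower on average (median 0.48), and 5 rose in both stages, against 3 genes with DP WT replicate 3 as the only DP control. Slc38a1, a glutamine transporter, went from 266, 295 and 293 CPM to 499, 473 and 498 CPM in DP and from 195, 194 and 175 CPM to 393, 393 and 401 CPM in CD4, an average of 0.93 ± 0.04 (adjusted p = 3.36e-09). The single fall was Slc7a11, the cystine transporter, at -2.92 ± 0.09. Of 21 cholesterol synthesis genes, 14 were higher and 1 lower on average (median 0.32), and 5 rose in both stages, against 3 genes under that same control. Sqle, squalene epoxidase, averaged 1.28 ± 0.11 with the larger rise in CD4; in DP its KO replicate 2, at 31.1 CPM, lay within the range of WT, at 23.4 to 33.9 CPM.

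**Figure D4:**
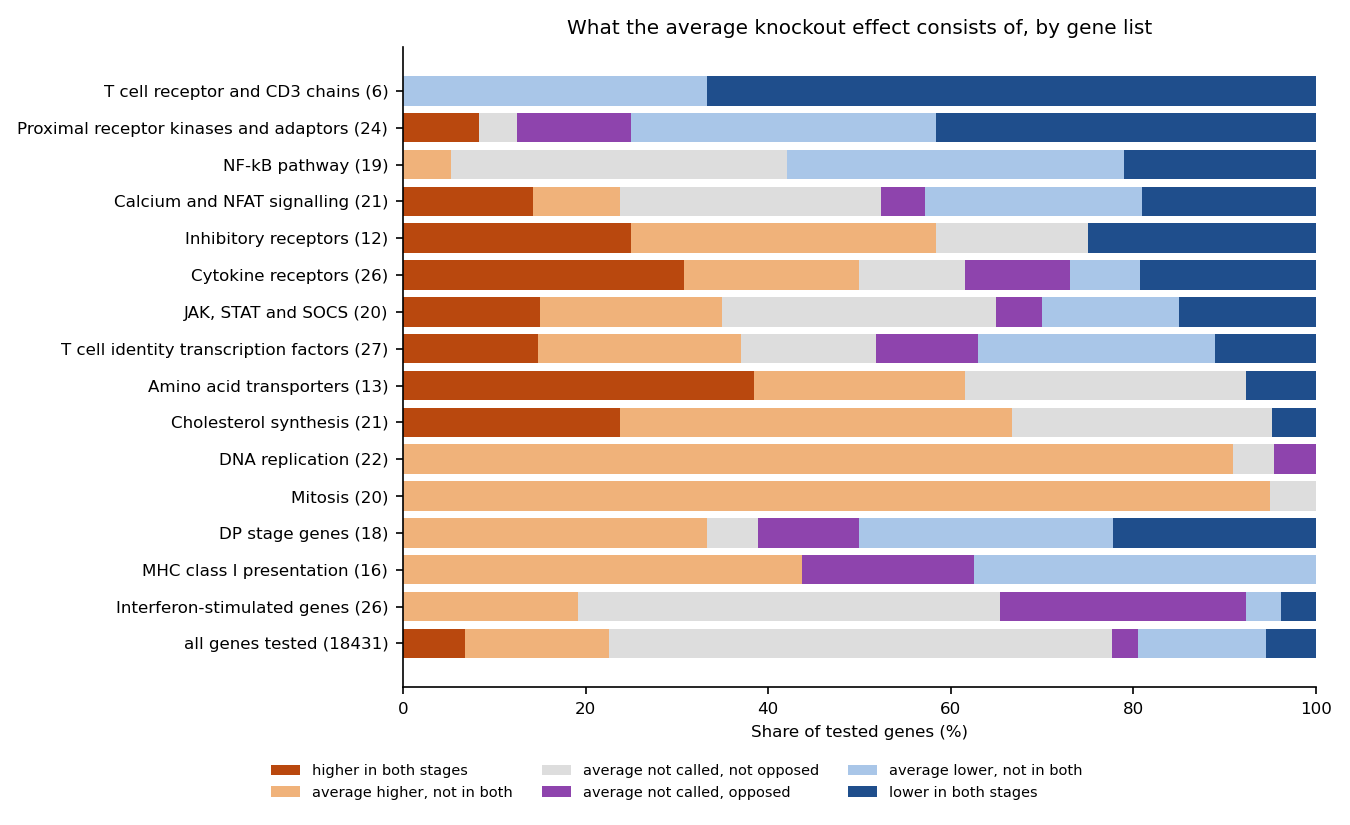
Share of the tested genes of 15 lists, and of all tested genes, that were higher or lower in both stages, called on average without being called in both, not called on average, or opposed with no call on average; the number tested is in brackets. The receptor and CD3 chain and proximal kinase lists are mostly lower on average, whereas DNA replication and mitosis genes are higher on average with none shared.

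For other groups the average did not describe either stage. Of 22 DNA replication genes 20 were higher on average and of 20 mitosis genes 19, with medians of 0.57 and 0.61, yet none rose in both stages: the rises were in CD4, and 4 genes of each list were opposed, lower in DP and higher in CD4. With the replicate number as a block 11 of the mitosis genes were opposed, and with DP WT replicate 3 as the only DP control 1 and 0 were. Mcm6, a subunit of the replicative helicase, stood at 297, 317 and 309 CPM in DP WT and 352, 299.7 and 393 CPM in DP KO, where the groups overlapped, and at 135, 120.2 and 170.04 CPM in CD4 WT and 334, 329 and 367 CPM in CD4 KO. Ccnb2, a mitotic cyclin, averaged 0.83 ± 0.10 from a DP effect of -0.22 ± 0.14 and a CD4 effect of 1.89 ± 0.15.

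Stage-specific genes went in opposite directions. Of 18 DP stage genes 8 were opposed, all lower in DP KO and higher in CD4 KO. Rag1, a recombinase subunit, went from 4232, 4537 and 4567 CPM to 1984, 1735 and 1807 CPM in DP and from 237, 225 and 139 CPM to 714, 673 and 842 CPM in CD4. Its average was 0.31 ± 0.11 (adjusted p = 0.0344), and the call was lost without DP KO replicate 1, DP WT replicate 1, DP WT replicate 2 or CD4 KO replicate 3 (adjusted p = 0.0528 to 0.0687) and with DP WT replicate 3 as the only DP control (0.14). Ptcra averaged -0.68 from -2.54 in DP and 1.19 in CD4, and Scn4b, a sodium channel subunit, -1.35 from -3.48 and 0.78. Dusp4, a phosphatase of MAP kinases, fell in DP by 2.70 and rose in CD4 by 0.63.

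Genes of the reverse pattern were higher in DP KO and lower in CD4 KO. Il6ra, the interleukin-6 receptor, went from 2.42, 1.34 and 1.34 CPM to 8.17, 10.1 and 6.61 CPM in DP and from 73, 78.4 and 97.4 CPM to 14.7, 16.3 and 14.8 CPM in CD4; its average was -0.09 ± 0.14 (adjusted p = 0.637) and its difference between stages -4.69 (interval -5.31 to -4.08). Ptgir, the prostacyclin receptor, and Klrk1, which encodes NKG2D, had differences of -4.26 and -4.07. None of 16 MHC class I genes was called in both stages with the same sign, and 5 were opposed, each higher in DP; with DP WT replicate 3 as the only DP control 2 were opposed and 1 was higher in both. B2m, the light chain, rose in DP by 1.56 ± 0.09 and had a CD4 effect of -0.16 ± 0.08. Of 26 interferon-stimulated genes 7 were opposed, each higher in DP KO, and none with DP WT replicate 3 as the only DP control. Oas2, an antiviral enzyme, stood at 2.65, 1.91 and 7.14 CPM in DP WT and 19.8, 20.5 and 4.55 CPM in DP KO. In replicate 3 the KO library was therefore the lower of the pair, and in replicates 1 and 2 the higher.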

How the data were processed

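The authors deposited raw read counts per gene, 1 table for DP and 1 for CD4, and the same 49997 genes of both were joined by symbol; the layout of the DP table is that of featureCounts, per the file headers. The submitters' processing notes name mm10, Subread 1.0.1, DESeq2 and R 4.1.5 without roles; the alignment step and strand setting are not stated in the labels. Libraries were grouped by title. The counts were fitted with edgeR 4.0.16 in R 4.3.3 (TMM, default low-count filter, 4 group means, quasi-likelihood tests, Benjamini-Hochberg adjustment over 18431 genes), after a check on simulated counts; SE is the log2 fold change over the square root of F, and intervals are 95%. Depth limits the precision: 3 counts were 0.0465 to 0.134 CPM. The labels give each library a batch, and it equals its replicate number. The main fit did not use that number, and a fit with it as a block is among the alternatives. Deviations from the group means correlated over genes with a median of 0.214 in 18 pairs of equal number and -0.134 in 36 others. Correlations above 0.1 were found in 14 and 8 of them. In DP, KO and WT of equal number gave -0.00972, -0.0803 and 0.202 for replicates 1, 2 and 3. KO 1 with WT 2 gave 0.234 and KO 2 with WT 1 gave 0.26. Deviations within a group cancel out, so the 2 kinds of pair are not independent.

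The members, the 38 gene lists and the alternatives were chosen with earlier results of these data known. Genes were named by rule: Satb1, the 12 largest and 12 smallest averages among shared genes of at least 2 log2 CPM, 6 even genes each way, 5 opposed genes each way, and up to 3 genes of each list by smallest adjusted p. Some of these are not reported here. Neighbours in the runs and list members outside the rule, among them Ifngr2, Il2rg, Ikzf1, Il12rb2, Cd69, Rag1, Havcr2 and Cd160, were chosen after their values were seen. Promoter sequences came from RefSeq; figures were drawn with matplotlib 3.10.9. The alternatives were limma-voom (limma 3.58.1), DESeq2 1.42.0 by its Wald test or by its size factors in edgeR, other low-count filters, the replicate number as a block, an additive model, each stage fitted alone, a minimum effect of 1, each library left out, and DP WT replicates 1 and 2 left out.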

Additional observations from a re-analysis of the deposited data

Results flagged for a closer look

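Of 126 named results, 50 had a knockout effect that differed between the stages by the test of the CD4 effect minus the DP effect (edgeR quasi-likelihood test, adjusted p under 0.05), and in 38 of them the effect had the same sign in both. Values in brackets are those differences on the log2 scale. Rises that were larger in DP were those of Il18r1 (-3.66), Maf (-3.21), Il2ra (-2.30), Scin (-1.60), Cst7 (-1.58), Fndc1 (-1.58), Prdm1 (-1.47), Gata3 (-1.22), Il12rb2 (-1.11), Nt5e (-0.91) and Stat4 (-0.47). Rises that were larger in CD4, or were seen in CD4 alone, were those of Slc38a1 (0.29), Smc4 (0.35), Ifngr1 (0.96), Gzma (1.08), Ikzf2 (1.09), Mcm6 (1.10), Sqle (1.53), Greb1 (1.55) and Cdc20b (2.14).

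Falls that were larger in CD4, or were seen in CD4 alone, were those of Tdgf1 (-2.54), Lrrc2 (-2.37), Ifngr2 (-1.02), Nfatc2 (-1.01), Gimap6 (-0.81), Rel (-0.80), Lef1 (-0.69), Il2rg (-0.57), Satb1 (-0.56) and Plcg1 (-0.44). Those larger in DP were Itpr1 (0.48), Adcy1 (1.46), Ets2 (1.64), Podxl2 (2.12), Jup (2.52), Slc7a11 (3.00), Nron (3.20) and Hspg2 (3.75). Of the genes whose estimates had opposite signs, Il6ra (-4.69), Oas2 (-4.30), Ptgir (-4.26), Klrk1 (-4.07), Gimap4 (-2.45) and B2m (-1.72) lay higher in DP KO, and Kdm8 (0.63), Ccnb2 (2.12), Rag1 (3.16), Dusp4 (3.33), Ptcra (3.74) and Scn4b (4.26) higher in CD4 KO. B2m and Ccnb2 were called in 1 stage alone.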

How the results depend on the processing

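None of 125 effects of named genes changed sign under the alternatives that were read gene by gene. The additive model, each stage fitted alone, list medians and the median of all genes were not part of that count. The minimum effect keeps the main estimates, so no sign could change under it. A minimum effect of 1 left 2022 genes on average (915 higher, 1107 lower), 401 higher and 305 lower in both stages, 105 opposed and 2372 differing between stages; Satb1 (-0.85) missed that size. With DP WT replicate 3 as the sole DP control there were 2320 lower genes, 536 lower in both stages, 399 opposed and 3341 differing between stages, and 60.7% of the called averages were higher, against 53.8%. Each stage fitted alone left 2015 genes called in both (1198 higher, 817 lower), and an additive model called 2772 as higher. The replicate block gave 4558 higher, 3994 lower, 1461 and 1245 in both stages and 1060 opposed, and of the named averages it ended the call of Foxp3 alone. Leaving out 1 library gave 6951 to 7727 genes on average and 601 to 926 opposed. DESeq2's Wald test kept 2235 of the 2253 shared genes and the sole DP control 1275. Without a low-count filter the median average over 42309 genes was -0.21. Outside the minimum effect, Foxp3 (adjusted p 0.0513 to 0.234), Lrrc2 (0.0617 to 0.194), Ccdc12 (0.0572 and 0.257), Prss50 (0.923) and Rag1 (0.0528 to 0.14) lost their call in at least 1 alternative; the cause was not tested.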

Other observations

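Some groups outside the comparisons above also held changes of the same direction in both stages. Hoxa5, Hoxa6 and Hoxa7, genes on chromosome 6, pattern the body axis and are active in blood progenitors. With Mira, which lies between Hoxa6 and Hoxa7, they formed a run of 4 rises without overlapping models. The averages of Hoxa5, Hoxa6 and Hoxa7 were 1.97 ± 0.20, 2.13 ± 0.19 and 2.17 ± 0.12 on the log2 scale, and that of Mira was 2.45 ± 0.18. Hoxa7 stood at 1.87, 1.93 and 1.83 CPM in DP WT and at 6.82, 6.89 and 7.99 CPM in DP KO, and at 1.29, 1.14 and 0.939 CPM in CD4 WT and 5.32, 6.29 and 6.41 CPM in CD4 KO. The levels of all 3 Hoxa genes were low, and KO and WT libraries did not overlap in either stage. Of 14 tested p53 target genes, 5 were lower and 2 higher on average. Fas, the death receptor, and Bbc3, which encodes the BH3 protein PUMA, fell in both stages, with averages of -0.91 ± 0.08 and -0.98 ± 0.11, and Pmaip1, which encodes the BH3 protein NOXA, rose in both (1.70 ± 0.27). With DP WT replicate 3 as the only DP control 3 fell and none rose in both stages.

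Of 25 genes of genome organisers, 13 were higher and 3 lower on average, and 5 were opposed. Smc4, a condensin subunit (1.17 ± 0.05), and Top2b, a DNA topoisomerase (0.50 ± 0.09), rose in both stages, and Nipbl, the cohesin loader (-0.28 ± 0.05), and Bptf, a chromatin remodeller (-0.24 ± 0.05), fell in both. With DP WT replicate 3 as the only DP control 1 rose in both stages, none fell in both and none was opposed. Of 79 ribosomal protein genes 29 were higher and 1 lower on average, but only 1 was higher in both stages and 7 were opposed; none was lower on average under that control. Of the 8 GIMAP GTPase genes, which bear on survival of mature T cells, 3 were lower on average and 3 were opposed. Gimap6 fell in both stages (-0.60 ± 0.05), whereas Gimap4 had a DP effect of 1.00 ± 0.22 and a CD4 effect of -1.45 ± 0.20. Under that control none of the 8 was lower in both stages and 1 was opposed.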
